A study of Mus musculus with 24 samples.

Results

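In limb buds of the mouse at embryonic day 10.5 (E10.5), 368 genomic regions lay under peaks of acetylated and of trimethylated lysine 27 of histone H3 at once. They were found per limb. H3K27ac peaks of both replicate libraries were merged into regions that had to be present in each library, H3K27me3 peaks were treated alike, and an H3K27ac region was a member when it shared 1 bp or more with an H3K27me3 region of the same limb. This gave 121 of 8514 H3K27ac regions in forelimb (1.42%) and 292 of 9115 in hindlimb (3.2%), or 368 of 11183 regions once the limbs were pooled. Members were thus chosen by their E10.5 peak calls of both marks, so their number, limb and overlap are descriptions without a test.

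The same lysine cannot carry both modifications on 1 histone tail. H3K27ac is placed by acetyltransferases at active promoters and enhancers, whereas H3K27me3 is deposited by Polycomb repressive complex 2 and is typical of developmental genes that are kept silent, many of them with CG-rich promoters. In an early limb bud, patterning genes are active in some mesenchymal cells and silent in others. In whole limb buds, marks on different cells, on the 2 alleles of 1 cell or on neighbouring nucleosomes give the same overlap in a peak list and cannot be told apart here.

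All animals were C57BL/6J embryos without a stated mutation or treatment. Forelimb and hindlimb buds were dissected separately, and each limb had 2 H3K27ac and 2 H3K27me3 chromatin immunoprecipitation libraries at E10.5 and 1 H3K27ac library at E11.5. The labels do not say that replicates came from separate litters, so the spread between them may be technical. Per the labels, H3K27ac was read paired-end and H3K27me3 single-end, and the H3K27ac antibody lot changed between the stages, so an effect of run type cannot be told apart from one of the mark, nor an effect of the lot from one of the stage. The later samples have a growth protocol that speaks of day 10.5, whereas their titles and stage labels give E11.5 and were followed.

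The lists differed in length before any overlap was taken. The forelimb H3K27ac lists held 21363 and 13589 peaks, the hindlimb ones 17161 and 18838. H3K27me3 peaks covered 9.93 and 7.56 Mb in the forelimb libraries and 13.5 Mb in hindlimb replicate 1, with a slightly smaller total in replicate 2. Sequencing depth is unknown, and a region without a peak may still carry the mark below the authors' threshold.

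Members near 3 LIM-homeodomain genes recur in the results below, and the promoter sequences of these genes are shown for their content of CG, the dinucleotide in which Polycomb target promoters tend to be rich. Lmx1b specifies dorsal limb fate, and Lhx2 and Lhx9 act together in limb outgrowth. The stretches are the 250 bases before the transcription start from RefSeq on build GRCm38.p6, 5′ to 3′ on the gene's strand, with each CG in capitals. They lie at chr2:33641099-33641348 (minus strand), chr2:38339031-38339280 and chr2:38351058-38351307 (plus strand) and chr1:138842445-138842694 (minus strand). Peaks are on build mm9, for which no genome or gene models were used here, so whether a member covers these bases was not determined.
Lmx1b: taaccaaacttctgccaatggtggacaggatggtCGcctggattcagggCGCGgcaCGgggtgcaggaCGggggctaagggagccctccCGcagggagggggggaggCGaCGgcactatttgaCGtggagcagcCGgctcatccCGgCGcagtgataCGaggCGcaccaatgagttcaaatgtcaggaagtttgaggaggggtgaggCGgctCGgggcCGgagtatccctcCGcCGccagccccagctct
Lhx2, upstream start: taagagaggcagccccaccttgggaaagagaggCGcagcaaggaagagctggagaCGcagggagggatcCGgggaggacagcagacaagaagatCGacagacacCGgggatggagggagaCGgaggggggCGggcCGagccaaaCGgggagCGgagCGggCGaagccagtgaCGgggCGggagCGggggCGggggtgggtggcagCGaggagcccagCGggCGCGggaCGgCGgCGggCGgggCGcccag
Lhx2, downstream start: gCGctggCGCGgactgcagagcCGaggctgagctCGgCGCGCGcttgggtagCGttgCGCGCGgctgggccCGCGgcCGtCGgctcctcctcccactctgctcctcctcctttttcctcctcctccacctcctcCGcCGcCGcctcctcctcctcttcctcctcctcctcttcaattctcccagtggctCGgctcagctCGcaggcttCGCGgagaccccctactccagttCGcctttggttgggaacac
Lhx9: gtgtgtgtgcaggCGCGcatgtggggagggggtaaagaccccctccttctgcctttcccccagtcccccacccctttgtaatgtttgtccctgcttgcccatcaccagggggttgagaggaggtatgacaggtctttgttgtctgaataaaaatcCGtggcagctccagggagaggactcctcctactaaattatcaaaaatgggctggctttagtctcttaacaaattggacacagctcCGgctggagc

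CG occurred 19 times in the Lmx1b stretch, 25 and 24 times in those of Lhx2 and 4 times in that of Lhx9. Over 32544 promoter stretches of the same length in the table the median was 6, with quartiles of 2 and 16, and 92.2% held at least 1 CG. At least as many CG as in the Lmx1b stretch were found in 19.9% of stretches, against 62.6% for Lhx9. Of 24 windows that held a member and are named by 1 gene, 16 had a gene in the table, with a median of 15 CG in the richest promoter of each gene (range 4 to 41). Of these, 13 lay above the median of all 26742 genes, which was 6. The 16 genes come from windows chosen beforehand, or added later in the case of Igf2 and Prdm16. Genes of windows without a member were not compared, so whether this CG content is particular to the members' neighbours was not tested. CG content differed widely among the members' neighbours: Ptch1 had 41 and Prrx1 4.

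Hindlimb accounted for most of the members. Of the 368 pooled regions, 248 (67.4%) met the rule in hindlimb only, 78 (21.2%) in forelimb only and 42 (11.4%) in both limbs. Over all 11183 pooled H3K27ac regions, 26.3% were regions of both replicates in hindlimb only, 22.2% in forelimb only and 51.6% in both limbs. Meeting the rule in 1 limb does not mean that the other limb lacked the marks: 6 of the 78 forelimb members outside the shared set had peaks of both marks in all 4 hindlimb libraries, as did 7 of the 248 hindlimb members in the forelimb libraries. Overlaps were also counted with the H3K27me3 regions of the other limb. Forelimb H3K27ac regions touched hindlimb H3K27me3 regions 259 times (3.04%), and hindlimb H3K27ac regions touched forelimb H3K27me3 regions 176 times (1.93%). Among single libraries, 177 to 719 forelimb H3K27ac peaks (1.30% to 3.37%) touched a forelimb H3K27me3 peak, depending on the pair, and 674 to 772 hindlimb peaks (3.75% to 4.30%) touched a hindlimb one. In percent, the 4 forelimb pairs all lay below the 4 hindlimb pairs. With 2 libraries against 2, an exact two-sided permutation test cannot give a p below 0.333, and whether biology or list length sets the difference was not tested. With every list of a mark cut to the length of its shortest, there were 96 forelimb and 181 hindlimb members. When 1 H3K27ac list alone stood for a limb, the number was 185 (replicate 2) or 519 (replicate 1) in forelimb and 652 (replicate 2) or 623 (replicate 1) in hindlimb. With replicate 1 alone for forelimb H3K27me3 it was 189.

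The overlap was usually shorter than 1 kb. Its median was 503 bp in forelimb (interquartile range 322 to 717) and 583.5 bp in hindlimb (388 to 773), in members with a median length of 888 and 834 bp. The median member had 60.1% of its length under H3K27me3 in forelimb and 80.6% in hindlimb. An overlap above 1 kb was seen in 11 forelimb and 38 hindlimb members. At the other extreme, 10 and 18 members overlapped by 100 bp or less, the shortest by 11 and 1 bp. Just outside the rule, 10 forelimb and 16 hindlimb H3K27ac regions ended within 100 bp of an H3K27me3 region, the nearest at 11 and 14 bp.

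The overlap did not always hold up base by base across libraries. Bases covered in all 4 lists of the limb were present in 75 of 121 forelimb members (62.0%) and 228 of 292 hindlimb members (78.1%), with a median of 83 and 245.5 such bases. When regions were limited to bases covered in both replicates of a mark, the median overlap was 182 bp in forelimb and 262 bp in hindlimb. Both H3K27me3 libraries had peaks inside the member in 100 and 267 members. Members ranked near the middle of their H3K27ac lists. The score percentile is a rank within the list from the peak caller's score. Its mean over the H3K27ac replicates had a median of 54.1 in forelimb and 55.9 in hindlimb, against 68.3 over all H3K27ac regions of either limb. In the H3K27me3 lists, the best peaks on members had median percentiles of 70.6 and 57.3 (forelimb replicates 1 and 2) and 67.3 and 63.6 (hindlimb). Members without a peak in the list were left out of these H3K27me3 medians.

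**Figure D1:**
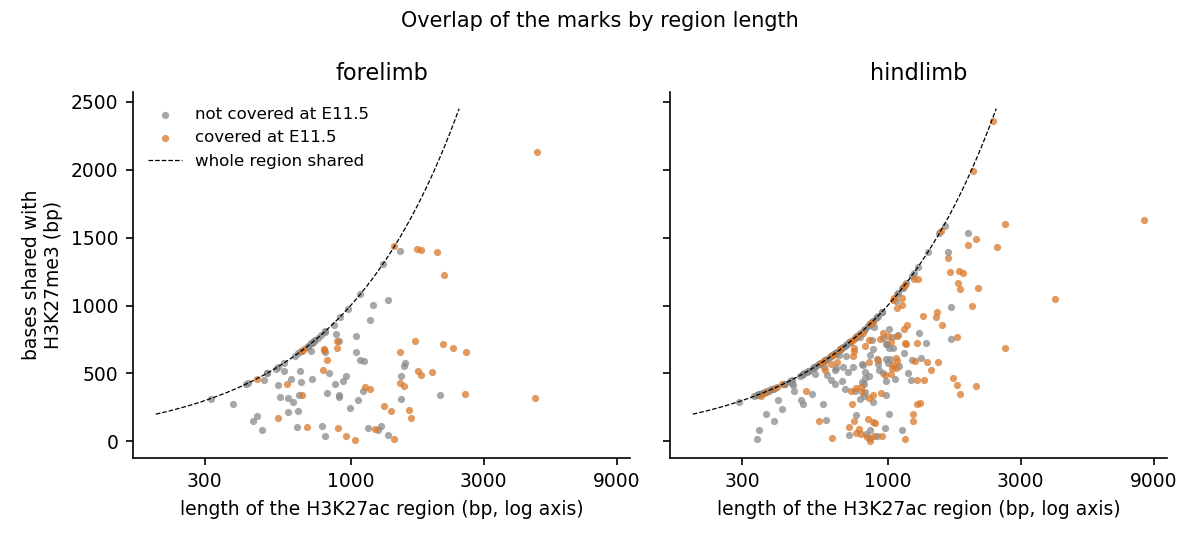
Bases shared with H3K27me3 (vertical axis, bp) against the length of the H3K27ac region (horizontal axis, bp, log scale) for 121 forelimb and 292 hindlimb members, each point 1 member, coloured by whether the E11.5 H3K27ac list of the same limb covers it; points on the dashed line are wholly under H3K27me3. Members on or near the line are mostly grey, whereas all hindlimb members above 2 kb, among them Pitx1 at 8336 bp, are covered at E11.5.

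Relative to the single H3K27me3 region, most members crossed one of its ends. This held for 85 of 121 forelimb and 164 of 292 hindlimb members. A further 29 and 110 lay wholly inside an H3K27me3 region, and in 7 and 18 an H3K27me3 region lay wholly inside the member. The share wholly under H3K27me3 was sensitive to single libraries: it ran from 8.4% to 53.2% in forelimb and from 18.2% to 64.4% in hindlimb when 1 E10.5 library was left out. When H3K27me3 regions within 5 kb were joined into domains, 44.6% of forelimb and 53.8% of hindlimb members lay wholly inside one, so that crossing an end was no longer the state of most hindlimb members. The domain touched by the median member measured 2035 bp in forelimb and 2110 bp in hindlimb. Domains of 5 kb or more were touched by 29 and 76 members. In these, 19 of 29 (65.5%, Wilson 95% interval 47.3 to 80.1) and 45 of 76 (59.2%, 48.0 to 69.6) member overlaps were centred in the outer 25% at either end, which together make up 50% of a domain's length. The outermost 10% at each end, 20% of the length, held 8 and 22. The counts in the outer parts were thus near or slightly above the share of length, and the interval for the larger outer part includes 50% in both limbs.

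Members were spread over all 19 autosomes, with none on X or Y, which held 0.903% of all pooled H3K27ac regions. Regions within 50 kb of each other formed 329 groups, of which 305 held a single member. Of the groups, 10 held 3 members or more, 35 members in all. Developmental loci among them were Lhx9 with 4, Tbx2 with 3, Zic2/Zic5 with 5, Tbx15, Lmx1b and Lhx2 with 3 each, and the HoxA, HoxC and HoxD clusters with 3, 3 and 4. The window of Zic2/Zic5, like those of Igf2 and Prdm16, was added after the members' positions had been seen. No such grouping of all pooled H3K27ac regions is given here. Whether members lay closer together than H3K27ac regions at large was therefore not tested.

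Of 71 windows around genes of limb patterning, Hox clusters, signalling and other cell types of the bud, 25 held a member, 23 in hindlimb, 10 in forelimb and 8 in both. Together they took 48 of the 368 pooled members, the added windows took 14, and 306 lay elsewhere. Those 306 have no gene name here, and only a few are given by position. The share of all 11183 pooled H3K27ac regions inside the windows was not determined. Whether members were more frequent in the windows than H3K27ac regions at large was therefore not tested. Among 13 windows of limb regulators 7 held a member, as did 7 of 13 of mesenchymal factors, 3 of 5 of Hox and Evx genes and 2 of 4 of Iroquois genes. Among signalling genes, 1 of 6 windows of the BMP pathway (Bmp2) and 1 of 4 of the hedgehog pathway (Ptch1) held one. None of 5 ectoderm windows, 5 endothelium and blood windows, 4 skeletal windows or the neural control Pax6 held one. At E10.5 the windows of En1, Wnt7a, Dlx5/Dlx6, Dlx1/Dlx2, Tal1, Gata2, Cdh5, Nkx3-2, Pax1, Pax9 and Pax6 had no H3K27ac peak. The Kdr window had H3K27ac in a single library, and the Fli1 window had no H3K27me3 peak. No member was possible in these windows, so their lack of members only restates missing peaks. Presence of both marks in a window did not by itself make a member: 29 forelimb windows had peaks of both marks in all 4 lists and 19 of these had no member, against 35 and 12 in hindlimb.

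Lmx1b held the longest overlaps in both limbs. In hindlimb, 4 members there shared 5951 bp with H3K27me3. The longest, chr2:33493866-33496248 (mm9), had 2372 and 1960 bp of H3K27ac and 1953 and 2307 bp of H3K27me3 in the 2 hindlimb libraries of each mark, and the marks shared 2358 of its 2383 bp. All 4 hindlimb libraries thus covered most of it. In forelimb the same interval had 2317 and 2031 bp of H3K27ac but only 503 and 611 bp of H3K27me3, which did not form a region present in both libraries there. The forelimb member, chr2:33497098-33501743, was 4646 bp long with H3K27ac over 4583 and 2783 bp and H3K27me3 over 2129 and 896 bp, and the H3K27me3 region lay inside it. H3K27ac of the same limb at E11.5 covered all 4 hindlimb members in full and 4483 bp of the forelimb member.

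Lhx9 and Lhx2 also had more overlapping bases in hindlimb. At Lhx9, 4 hindlimb members shared 3680 bp with an H3K27me3 domain of 11087 bp, and no forelimb member was found. The longest, chr1:140736165-140738796, had 2479 and 2070 bp of H3K27ac and 1838 and 1060 bp of H3K27me3 in hindlimb. Forelimb had 2219 and 1711 bp of H3K27ac on that interval, and 656 and 0 bp of H3K27me3. Acetylation was therefore present in all 4 libraries, and H3K27me3 in both hindlimb libraries and 1 forelimb library. At Lhx2, 3 hindlimb members shared 3317 bp and 1 forelimb member 657 bp. The hindlimb region chr2:38210061-38212075 had 835 and 1961 bp of H3K27ac and 1920 and 999 bp of H3K27me3, so that the replicates of each mark differed in extent there. Forelimb had 1835 and 477 bp of H3K27ac and 567 and 296 bp of H3K27me3 on that interval, so both marks were called in all 4 forelimb libraries as well. All of these members were covered at E11.5, at least in part.

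At regulators of hindlimb identity, short H3K27me3 peaks lay within a long acetylated interval. This arrangement was not particular to them. H3K27me3 regions also lay inside the longest hindlimb member at Lhx9, the hindlimb member at Alx4 and the forelimb member at Lmx1b. Pitx1 encodes a homeodomain factor that directs hindlimb identity. Its hindlimb member, chr13:55926316-55934651, was the longest of all at 8336 bp, with H3K27ac over 7298 and 7755 bp, H3K27me3 over 2507 and 2112 bp, and 1631 bp shared by the regions of both replicates. In forelimb the interval had 0 bp of H3K27ac in both libraries and 7421 and 7147 bp of H3K27me3. Tbx4, the T-box factor of the hindlimb, was alike: chr11:85701428-85705421 (3994 bp) had 3342 and 3629 bp of H3K27ac and 1083 and 1048 bp of H3K27me3 in hindlimb. On that interval forelimb had 339 and 0 bp of H3K27ac and 3775 and 3620 bp of H3K27me3. At both genes every hindlimb library had more H3K27ac and less H3K27me3 on the interval than either forelimb library, and E11.5 hindlimb H3K27ac covered both members completely.

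**Figure D2:**
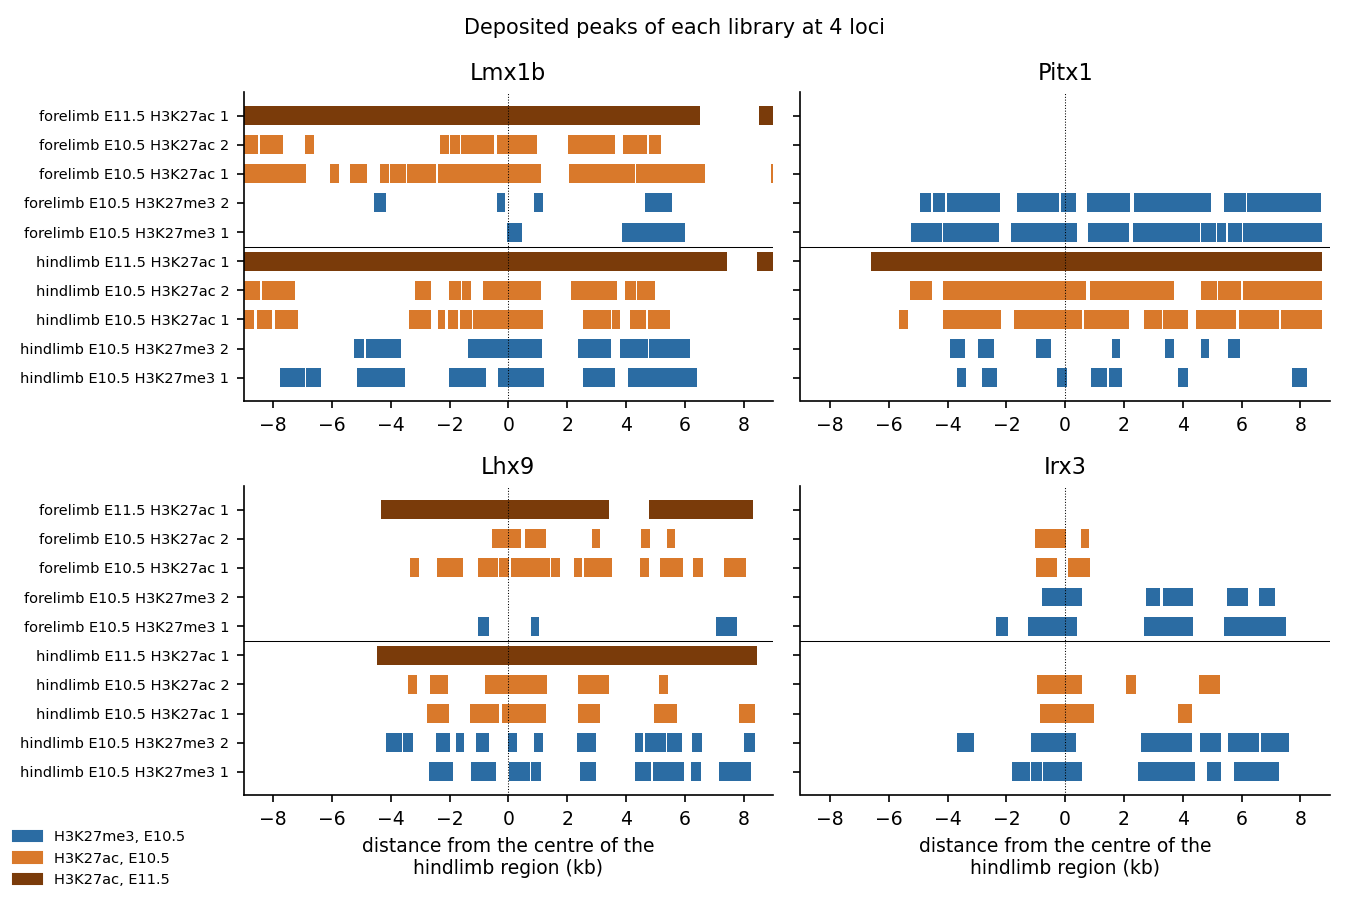
Deposited peaks of each library (rows; blue, H3K27me3 at E10.5; orange, H3K27ac at E10.5; brown, H3K27ac at E11.5) within 9 kb of the centre of a hindlimb member at Lmx1b, Pitx1, Lhx9 and Irx3, with distance from the centre in kb on the horizontal axis and hindlimb below the line. Both marks alternate or coincide at Lmx1b and Lhx9 in hindlimb, Pitx1 has long H3K27me3 peaks in forelimb and short ones in hindlimb, and Irx3 has both marks in both limbs at E10.5 and no H3K27ac peak at E11.5.

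Other T-box and mesenchymal genes met the rule in hindlimb alone, with different states in forelimb. Tbx15, which shapes the limb girdles, had 3 with 2550 bp shared inside an H3K27me3 domain of 24241 bp, and its window had 14.6 and 13.9 kb of H3K27me3 in hindlimb against 4.90 and 2.48 kb in forelimb. The Tbx2 window, a T-box repressor gene, had 3 short members with 1289 bp shared. On those, forelimb had H3K27me3 in both libraries and 0 bp of H3K27ac in both. At Tbx18 (chr9:87624190-87626013) and Shox2 (chr3:66782329-66784135), a regulator of the proximal limb skeleton, both forelimb libraries had H3K27ac over 1502 to 1792 bp of the member and 0 bp of H3K27me3. Prrx1, a marker of limb mesenchyme, had the same pattern, with 684 bp of hindlimb H3K27me3 inside an acetylated region of 2628 bp. Alx4, which acts in the anterior limb, shared 1492 bp in hindlimb. Forelimb had 1478 and 1431 bp of H3K27ac and 1259 and 168 bp of H3K27me3 on the Alx4 member, so all 4 forelimb libraries had peaks there too. Sall1 shared 880 bp, with 136 and 0 bp of H3K27me3 in forelimb. E11.5 hindlimb H3K27ac covered all of these members at least in part.

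Hand2 and Bmp2 reversed that order of limbs. Hand2, the bHLH factor of the posterior limb that acts upstream of Shh, had 2 forelimb members with 389 and 522 bp shared and none in hindlimb. The first, chr8:59800551-59801720, had 1170 and 905 bp of H3K27ac and 330 and 343 bp of H3K27me3 in forelimb. In hindlimb it had 350 and 1070 bp of H3K27ac and 898 and 0 bp of H3K27me3, so that both marks were called there in hindlimb too, H3K27me3 in 1 library only. Bmp2, a BMP ligand of the ridge and the posterior mesenchyme, had a forelimb member of 894 bp with 685 bp shared. The hindlimb had 894 and 769 bp of H3K27me3 on it, with H3K27ac over 317 bp in 1 library only. Ptch1, receptor and target of hedgehog signalling, had a hindlimb member of 1056 bp wholly under H3K27me3. Cyp26b1, a retinoic acid degrading enzyme of the distal limb, shared 570 bp in hindlimb.

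The Hox clusters held members that differed between the limbs in place. Hox genes of the A and D clusters pattern the limb along its long axis. HoxA had 2 forelimb members and 1 hindlimb member, none of them at the same position. At the hindlimb one, chr6:52202526-52203649, forelimb had 0 bp of H3K27ac in both libraries and 1093 and 1067 bp of H3K27me3. HoxC, whose posterior genes are active in hindlimb, had 3 hindlimb members with 1987 bp shared in an H3K27me3 domain of 43029 bp. On these, forelimb had no H3K27ac in either library and H3K27me3 in both. The single forelimb member, chr15:102845471-102846639, lay elsewhere in the cluster and was the only HoxC member without H3K27ac at E11.5. HoxD had 2 forelimb and 3 hindlimb members, of which all but 1 hindlimb member were covered at E11.5.

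Irx3 and Irx5, Iroquois homeobox genes of the proximal and anterior limb, stood on the other side at E11.5. The hindlimb Irx3 member, chr8:94323492-94325428, had 1815 and 1558 bp of H3K27ac and 1486 and 1320 bp of H3K27me3. Forelimb had 2 members there, chr8:94323424-94324505 and chr8:94324564-94325292, with 1539 bp shared in all. Both marks were thus present in all 8 E10.5 libraries, and both windows had 0 kb of H3K27ac at E11.5 in either limb. Foxc1 and Foxc2/Foxf1, forkhead genes of mesenchyme and mesoderm, each had 1 short hindlimb member (415 and 423 bp shared) in an H3K27me3 domain of 16594 and 16925 bp, and neither was covered at E11.5.

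Markers of other cells of the bud were checked in the same way. Tfap2a, a gene of ectoderm and neural crest, had 2 hindlimb members with 1844 bp shared. The windows of Pax3 and Lbx1, genes of muscle precursors, and of Sox10, a gene of neural crest, held no member. At Pax3 and Lbx1, H3K27ac was called in a single E10.5 library each, so no member was possible there. Which cells carried either mark was not tested.

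Among the windows added later, Igf2, an imprinted growth factor gene, had members in both limbs sharing 1414 bp and 1447 bp at the same place (chr7:149845916-149847649 in forelimb), fully covered at E11.5. Members without a named window included chr4:131392176-131393783 in hindlimb (1587 bp shared) with chr4:131392975-131394338 in forelimb (1043 bp), and chr2:90729456-90730955 in forelimb (1400 bp), none of them covered at E11.5. At chr8:73017012-73018799 the forelimb member shared 1408 bp and was wholly covered at E11.5.

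The state of the other limb was asymmetric. Of the 121 forelimb members, 109 (90.1%) had H3K27me3 in both hindlimb libraries, against 2.82% of all forelimb H3K27ac regions. Of the 292 hindlimb members, 127 (43.5%) had H3K27me3 in both forelimb libraries, against 1.77%, and 100 had it in neither. H3K27ac of the other limb was found in both libraries for 56 forelimb members (46.3%, against 70.4% of all regions) and 129 hindlimb members (44.2%, against 66.5%). The share of members acetylated in the other limb was thus below that of H3K27ac regions at large in both limbs. A minority had the opposite state in the other limb: 28 forelimb members had hindlimb H3K27me3 in both libraries and H3K27ac in none, and 38 hindlimb members had the same in forelimb. Over all H3K27ac regions of the limb this state was found in 0.693% and 0.625%. The reverse, H3K27ac in both libraries and H3K27me3 in none, was seen at 4 forelimb and 55 hindlimb members, against 67.9% and 65.4% of all regions. Members have H3K27me3 in their own limb by rule, and the limbs' H3K27me3 lists overlap, so these shares are not independent of how members were chosen.

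**Figure D3:**
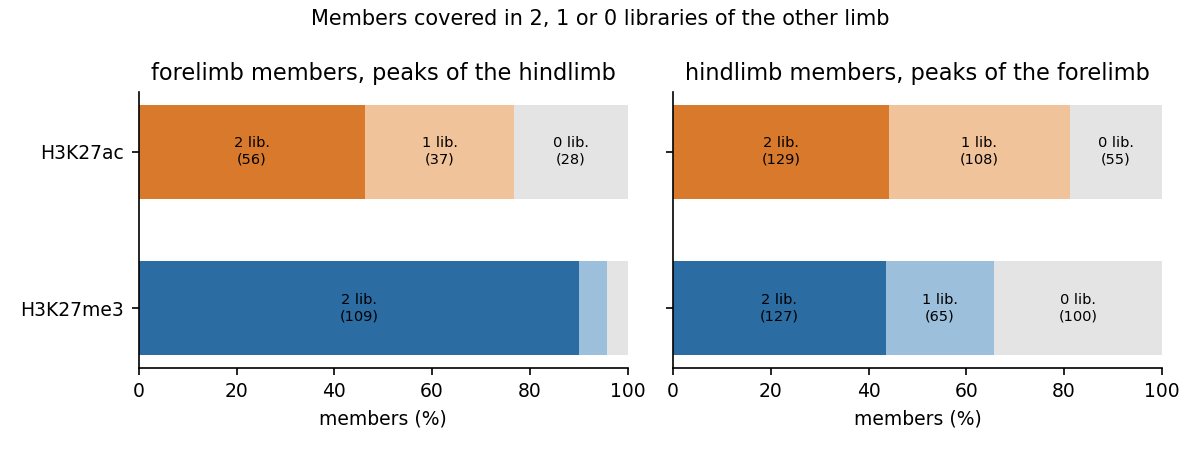
Share of members (horizontal axis, %) covered by peaks of the other limb in 2, 1 or 0 libraries, by mark, with the number of members in brackets (segments of 7 and 5 members are not lettered). Hindlimb H3K27me3 covers 109 of 121 forelimb members in both libraries, and forelimb H3K27me3 covers 127 of 292 hindlimb members in both.

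One day later most members had no H3K27ac peak. At E11.5, H3K27ac of the same limb covered at least 1 bp of 42 of 121 forelimb members (34.7%, Wilson 95% interval 26.8 to 43.5) and 113 of 292 hindlimb members (38.7%, 33.3 to 44.4). Over all E10.5 H3K27ac regions the share was 90.7% and 92.6%. Coverage of at least 50% of the length was reached by 35 forelimb members (28.9%) and 99 hindlimb members (33.9%), against 87.8% and 90.6% of all regions. The intervals cover counting error only: each limb had 1 E11.5 library, neighbouring regions are not independent and no test was made. E11.5 peaks closer than 1001 bp appear joined in the deposited lists, which can only add to coverage. Regions of a single H3K27ac list were covered less often: without forelimb replicate 1 or 2 the members' share was 19.5% or 15.6%, and without hindlimb replicate 1 or 2 it was 25.5% or 25%, with all regions of those lists at 74.5% or more. Members made up 1.42% of forelimb H3K27ac regions but 79 of the 789 (10.0%) that were uncovered at E11.5, and in hindlimb 3.2% against 179 of 670 (26.7%).

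Members had lower H3K27ac scores than other H3K27ac regions, and lower scores went with less coverage at E11.5. The share was therefore also taken within classes of score. Among regions with a mean score percentile of 50 or above, 33 of 74 forelimb members (44.6%) were covered, against 94.1% of all such regions, and 83 of 176 hindlimb members (47.2%) against 95.1%. Above percentile 75, 24 of 32 forelimb members (75%, 57.9 to 86.7) were covered, against 98.0% of the other H3K27ac regions. In hindlimb it was 38 of 61 (62.3%, 49.7 to 73.4) against 98.8%. At percentile 25 or below it was 0 of 9 and 4 of 22, against 79.2% and 86.2%. The members' share lay below that of the other regions in each of the 4 score classes of both limbs. It also did so in each class of length except above 2 kb in hindlimb, where all 11 members were covered, against 99.6% of the others.

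**Figure D4:**
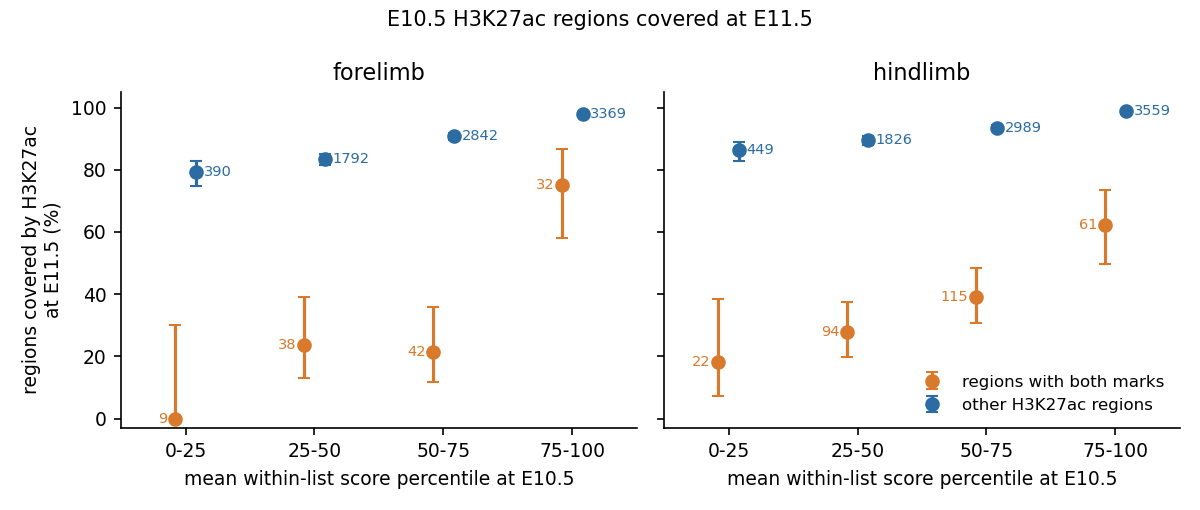
Share of E10.5 H3K27ac regions covered by H3K27ac at E11.5 (vertical axis, %) by class of mean within-list score percentile (horizontal axis), for members and all other regions of each limb; points give the share, bars the Wilson 95% interval for counting error, and small figures the number of regions. Members lie below the other regions in all 8 comparisons, and their share is highest in the top class, at 75% in forelimb and 62.3% in hindlimb.

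Nearness to H3K27me3 without overlap went with an intermediate share. H3K27ac regions that ended within 1 kb of an H3K27me3 region were covered at E11.5 in 48 of 77 cases in forelimb (62.3%) and 84 of 110 in hindlimb (76.4%). Members wholly under H3K27me3 were covered in 4 of 29 and 18 of 110 cases. The covered members were longer, with a median of 1407.5 and 1042 bp against 782 and 730 bp, and ranked higher in the H3K27ac lists, at a median percentile of 77.7 and 62.4 against 50.3 and 50.6. Their median overlap differed less, at 500 and 630 bp against 503 and 562 bp.

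Coverage at E11.5 also differed with where the members lay. Inside the 71 windows, 10 of 14 forelimb members (71.4%, 45.4 to 88.3) and 36 of 41 hindlimb members (87.8%, 74.5 to 94.7) were covered. Outside them it was 32 of 107 (29.9%, 22.1 to 39.2) and 77 of 251 (30.7%, 25.3 to 36.6). Members in H3K27me3 domains of 10 kb or more were covered in 7 of 12 and 39 of 50 cases (78%), and those in domains under 2 kb in 15 of 60 (25%) and 45 of 133 (33.8%). The windows were chosen for limb genes with earlier results of these data known, and window, domain length and score were not separated from each other. Over all E10.5 H3K27ac regions the share was 90.7% in forelimb and 92.6% in hindlimb. It was not taken for all regions inside and outside the windows. Whether the difference by window is particular to members was therefore not tested.

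Seen from the repressive mark, 124 of 5752 forelimb H3K27me3 regions (2.16%) and 299 of 6888 hindlimb ones (4.34%) touched a member. H3K27ac at E11.5 covered 1.93% of all forelimb and 4.33% of all hindlimb H3K27me3 regions. Of those touching members, 33 of 124 in forelimb (26.6%) and 102 of 299 in hindlimb (34.1%) were covered. Of the remaining H3K27me3 regions it was 78 of 5628 (1.39%) and 196 of 6589 (2.97%). No H3K27me3 of E11.5 was analysed here, so whether the repressive mark persisted at the members was not tested.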

How the data were processed

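Chromatin immunoprecipitation peak lists of 10 libraries were used: 8 at E10.5 (2 per limb and mark) and 2 at E11.5 (H3K27ac, 1 per limb). Not analysed here were 10 input and 4 mRNA samples. Per the submitters' processing notes, Bowtie 0.12.3, MACS 1.37 and build mm9 were used. Per the file headers, E10.5 peaks passed a MACS p-value of 1e-05, and each library has its own list. Each deposited E10.5 peak has a score from the authors' caller, -10 times the log10 of its p-value, and the lowest was 50. The score served only to rank peaks within a list (percentile; the best peak under a region, averaged over replicates). The 2 deposited E11.5 lists give positions only, with no threshold stated in the labels or files. Depth is not in peak lists.

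Peaks of a mark were merged at a gap of 0 bp over the 2 replicates of a limb (union extent), and regions with a peak of each replicate were kept. Coverage means 1 bp or more. The labels gave each sample's limb, stage and mark. No test across samples was made. Shares have Wilson 95% intervals (statsmodels 0.14.6; pandas 2.3.3, numpy 2.4.6, Python 3.11.15). The overlap code was tested on simulated lists, where it recovered 100% of 200 planted overlaps among 8000 regions.

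Members, gene lists and windows were chosen with earlier results of these data known. Named regions were, per limb, the 10 members with the longest overlap, the 5 with the best mean score percentile over 4 lists, and those in windows of genes with flanks of 25 kb. The sequence table gave promoters of GRCm38.p6. Windows were placed from general knowledge of mm9. Against a GRCm38.p6 table, all 76 (71 and the 5 added ones) lay on the same chromosome and all 16 chromosomes kept their order. For 62 of 74 with a neighbour, the shift between builds was within 50 kb of that of the nearest window, which does not check exact bounds. Some named regions are not reported here. The position of members relative to exons, introns or promoters is not given. Alternatives were other merging, overlap and score rules and leaving out each E10.5 library.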

Additional observations from a re-analysis of the deposited data

How the results depend on the processing

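No paired analysis was possible because no result comes from a test across samples, and replicate numbers name libraries only. Merging within 1000 bp gave 71 members in both limbs. Requiring 50% of the H3K27ac region under H3K27me3 gave 68 forelimb members, 18 in both limbs, and 23.5% and 32.4% covered at E11.5 in forelimb and hindlimb. The top 50% of each list gave 23 forelimb, 72 hindlimb, 86 pooled and 9 shared members. Lists of equal length gave 181 in hindlimb, and bases covered in both replicates gave 23 in both limbs. Regions of score percentile 50 or above, an alternative chosen after seeing the data, were covered at E11.5 in 44.6% and 47.2%, against 94.1% and 95.1% of all such regions. Leaving out 1 library lets a single list stand for the limb, so most counts rise: 119 to 519 forelimb, 324 to 652 hindlimb, 362 to 711 pooled and 40 to 88 shared members. The counts moved by over 1.5 times without forelimb H3K27ac replicate 1 (185 forelimb members), forelimb H3K27ac replicate 2 (519), forelimb H3K27me3 replicate 2 (189), hindlimb H3K27ac replicate 1 (652) and replicate 2 (623). E11.5 coverage then ranged from 15.6% to 38.7% in forelimb and from 25% to 43% in hindlimb. In all 24 alternative values of E11.5 coverage, members lay below all H3K27ac regions, by 47.9 to 67.2 percentage points. Among these counts and shares, 46 further alternative values stayed within 1.5 times the count or within the counting interval. Depth is unknown, E11.5 has 1 library per limb, and a region missing from a list may lie just under the authors' threshold.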
